A study of Drosophila melanogaster with 6 samples.

Results

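The nuclear genome of *Drosophila melanogaster* encodes threonine tRNAs with 3 anticodons, and all 5 threonine isodecoders of the deposited hydro-tRNAseq table are described here. They were taken as every row of nuclear origin whose name begins with Thr, which gave 5 of 84 nuclear isodecoders and 5 of 106 tRNAs in all. Isodecoders are the distinct mature sequences found among tRNAs of a given anticodon, and a name ending in X stands for several genes with the same mature sequence. Anticodons are written as DNA, as in the deposited table, so the T in AGT is a U in the tRNA. Hydro-tRNAseq breaks tRNAs into short fragments by limited alkaline hydrolysis before sequencing, which lessens the block that modified bases and folds pose to reverse transcription. Whole brains were dissected from larvae of the L3 stage. The neuroblast-biased group (3 samples) carried *insc-Gal4* and *UAS-aPKC_caax*, which drives a membrane-targeted form of the polarity kinase aPKC in neuroblasts and yields ectopic neuroblasts. The neuron-biased group (3 samples) was wildtype, Oregon R in the sample records and Oregon-R-P2 in the methods. The sections of the paper do not name the same larval age, so the stage of the sample records is used. Both groups are whole brains that hold several cell types, and the table lists only tRNAs, so cell type markers could not be checked. In such bulk RNA, a different number of cells and a different amount of a tRNA per cell cannot be told apart.

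Threonine is encoded by the codons ACU, ACC, ACA and ACG. In eukaryotes, the adenosine at the first position of the AGT anticodon is deaminated to inosine, which can pair with U, C and, weakly, A at the last codon position. A tRNA with anticodon TGT reads ACA and can wobble to ACG, and one with CGT reads only ACG. No threonine tRNA with the anticodon GGT is in the table, so under the usual wobble rules ACU and ACC are read by the inosine-type AGT tRNA. Inosine itself was not measured, and "inosine-type" refers to the anticodon of the gene. All of these tRNAs are transcribed by RNA polymerase III and charged by threonyl-tRNA synthetase.

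The table gives 1 mean per group, in TMM, a read count normalized between libraries by the trimmed mean of M-values. There is no value per sample, so the differences carry no replicate error, no test was made, and the depth behind each mean is unknown. Every comparison below is therefore a description of group means, and whether neighbours in an order differ beyond their spread cannot be said. As a background, 57 of the 84 nuclear isodecoders had a lower mean in neuroblasts, and the median log2 ratio of neuroblast over neuron was −0.27.

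Most of the threonine TMM was held by 3 isodecoders, 1 for each anticodon. As TMM counts reads, comparisons between different tRNAs here and below assume that they were recovered alike, which was not tested. Thr-CGT-1-X, the reader of ACG, had a mean TMM of 247298 in neuroblasts and 241978 in neurons. Thr-AGT-1-X, the major inosine-type reader, had 218453 in neuroblasts and 243185 in neurons. Thr-TGT-2-X, the major reader of ACA, had 152133 and 145861. Together these 3 made up 98.5% of the summed threonine TMM in neuroblasts and 98.4% in neurons. Each was above the median of all nuclear isodecoders, which was 76249 in neuroblasts and 90899 in neurons. Thr-AGT-1-X ranked 19 of 84 in neuroblasts and 20 in neurons by TMM, Thr-CGT-1-X ranked 16 and 22, and Thr-TGT-2-X ranked 26 and 31.

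The other two isodecoders were scarce. Thr-AGT-2-1 had a mean TMM of 4542 in neuroblasts and 7023 in neurons. Thr-TGT-1-1 had 4663 in neuroblasts and 3455 in neurons, so the order of this pair differed between the groups. Thr-AGT-2-1 supplied 2.04% (neuroblasts) and 2.81% (neurons) of the summed AGT level, and Thr-TGT-1-1 supplied 2.97% and 2.31% of the TGT level. Each was thus a small part of its anticodon group. Mature AGT isodecoders are 77 nt long with the added CCA end and the others are 75 nt, so levels were also compared per nucleotide. Per nucleotide, Thr-CGT-1-X stood first in both groups, with a TMM of 3297 against 2837 for Thr-AGT-1-X in neuroblasts and 3226 against 3158 in neurons. Without division by length, Thr-AGT-1-X was the higher of the pair in neurons by a factor of 1.005. Their levels in neurons are therefore close enough for the order to turn on a length difference of 2 nt. The level of Thr-TGT-2-X per nucleotide was 2028 in neuroblasts and 1945 in neurons, below both.

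**Figure D1:**
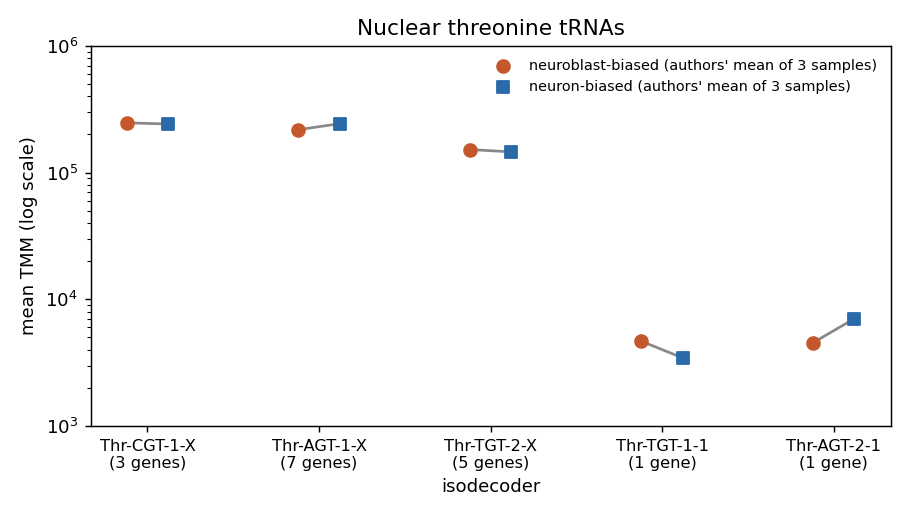
Mean TMM of the 5 nuclear threonine isodecoders on a log axis, with circles for neuroblast-biased and squares for neuron-biased brains, each point being a deposited mean of 3 samples without an error. The 3 isodecoders with several genes lie between 145861 and 247298 TMM, while the 2 single-gene isodecoders lie between 3455 and 7023.

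The gene copies behind these levels were counted in RefSeq for the *Drosophila* assembly Release 6, which lists 17 nuclear threonine tRNA genes among 290 nuclear tRNA genes. A further threonine locus, Thr-AGT-3-1Psi on chromosome 3L, is annotated as a pseudogene and is not a row of the table. Thr-AGT-1-X has 7 genes, 1 on chromosome 2L, 1 on 2R and 5 on 3R. Thr-TGT-2-X has 5 genes, of which 4 lie on 2R between 11394353 and 11405303 and 1 on 3R. The 3 genes of Thr-CGT-1-X form a single cluster on 3R from 20890698 to 20891729, with 352 and 464 bp between neighbours. They share this cluster with no other threonine gene, and none of them falls inside another gene. Thr-AGT-2-1 lies on 2R from 7069970 to 7070043, which is 716 bp from Thr-AGT-1-2, a gene of the abundant isodecoder of the same anticodon. A scarce and an abundant AGT isodecoder thus have genes in the same neighbourhood. The table cannot tell how much of Thr-AGT-1-X, if any, comes from that gene. Thr-TGT-1-1 lies on 3R from 12206575 to 12206646, and its nearest threonine gene, Thr-TGT-2-5, is 115916 bp away. Of the 17 genes, 5 lie within the span of another gene, among them Thr-AGT-1-7 within *bnl*, which encodes an FGF ligand, and Thr-AGT-1-1 within *tai*, which encodes a steroid receptor coactivator. The annotation used gives spans without exons or strand, so exon and intron cannot be told apart.

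Divided by the number of genes, the levels fell into 3 tiers. Thr-CGT-1-X had 82433 TMM per gene in neuroblasts and 80659 in neurons. Thr-AGT-1-X had 31208 and 34741, and Thr-TGT-2-X had 30427 and 29172, close to each other in both groups. The median over all nuclear isodecoders was 30264 TMM per gene in neuroblasts and 42713 in neurons, so the AGT and TGT isodecoders of several genes were near it in neuroblasts and below it in neurons. The single-gene isodecoders Thr-AGT-2-1 and Thr-TGT-1-1 were below the median of their kind. The median of the 38 nuclear isodecoders of 1 gene was 20987 in neuroblasts and 32895 in neurons. Among these 38, Thr-TGT-1-1 was the sixth lowest in neuroblasts and the fifth lowest in neurons, and Thr-AGT-2-1 was the fifth lowest in neuroblasts and the tenth in neurons. The AGT anticodon has 47.1% of the threonine genes, TGT has 35.3% and CGT has 17.6%. Reads that map to several tRNAs were split between them, so values of isodecoders with the same anticodon are not fully separate. Values of different anticodons may not be fully separate either, which could not be checked here.

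**Figure D2:**
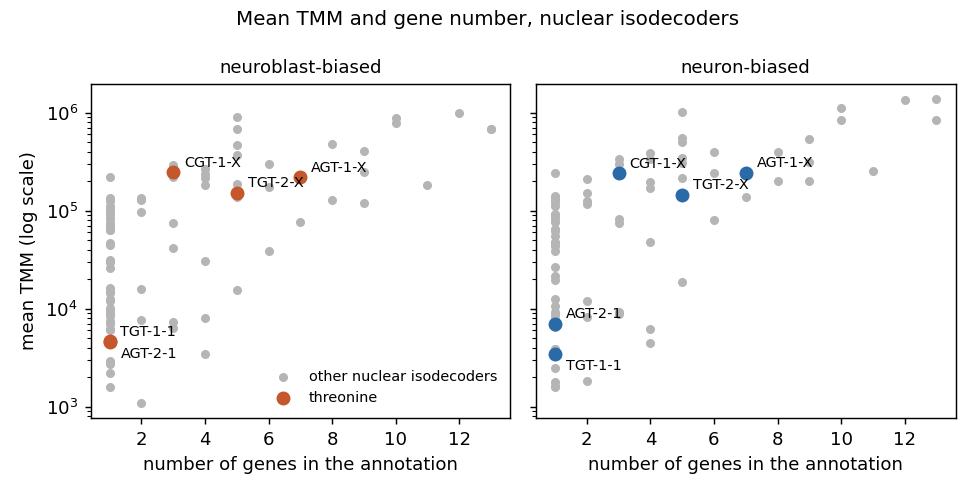
Mean TMM on a log axis against the number of genes in the Release 6 annotation for the 84 nuclear isodecoders (grey) in neuroblast-biased and neuron-biased brains, with the 5 threonine isodecoders in colour. Thr-CGT-1-X reaches 247298 TMM in neuroblasts with 3 genes, above Thr-AGT-1-X with 7 genes at 218453.

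Between the groups, the abundant threonine isodecoders had nearly the same means on the deposited scale. The log2 ratio of neuroblast over neuron was 0.03 for Thr-CGT-1-X, 0.06 for Thr-TGT-2-X and −0.15 for Thr-AGT-1-X. The scarce isodecoders lay farther out, at −0.63 for Thr-AGT-2-1 and 0.43 for Thr-TGT-1-1, and in opposite directions. Thr-AGT-2-1 was the only 1 of the 5 with a log2 ratio of at least 0.5 in size, against 41.7% of the nuclear isodecoders (35 of 84). Those 35 comprised 28 lower in neuroblasts, or 33.3%, and 7 higher, or 8.33%, so the direction of Thr-AGT-2-1 was the more common. The study marks isodecoders by that size together with a limit on the q-value. The q-values were not used here, so passing the size alone does not meet that mark and is not a test. The anticodon groups that the paper lists as differing include none of threonine. The median size of the log2 ratio was 0.15 over the 5 threonine isodecoders and 0.43 over all nuclear isodecoders. By size of the ratio, from the largest, Thr-CGT-1-X ranked 82, Thr-TGT-2-X ranked 78 and Thr-AGT-1-X ranked 66 of 84. A mean lower in neuroblasts was found for 2 of the 5, both with the anticodon AGT, against 67.9% of the nuclear isodecoders. A higher mean in neuroblasts was found for 3 of the 5, against 32.1%.

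These signs and sizes depend on the scaling, because most nuclear tRNAs had a lower mean in neuroblasts. Centring the nuclear isodecoders on their median adds 0.27 to every log2 ratio. By construction, this leaves as many of the 84 nuclear isodecoders above 0 as below it. Thr-AGT-1-X then stands at 0.11, Thr-CGT-1-X at 0.30, Thr-TGT-2-X at 0.33 and Thr-TGT-1-1 at 0.70, all higher in neuroblasts. Thr-AGT-2-1 stands at −0.36 and is the only threonine isodecoder still lower. The isodecoder past a size of 0.5 is then Thr-TGT-1-1 in place of Thr-AGT-2-1, beside 34.5% of the nuclear isodecoders on this scale. The median size of the centred ratios was 0.33 over the threonine isodecoders and 0.34 over all nuclear isodecoders, so the small sizes above belong to the deposited scale. By centred size, Thr-CGT-1-X ranked 48, Thr-TGT-2-X ranked 45 and Thr-AGT-1-X ranked 71 of 84. The differences between threonine isodecoders do not depend on this choice, since the same amount is added to each. The AGT isodecoders had the lowest log2 ratios of the 5 under either scaling.

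**Figure D3:**
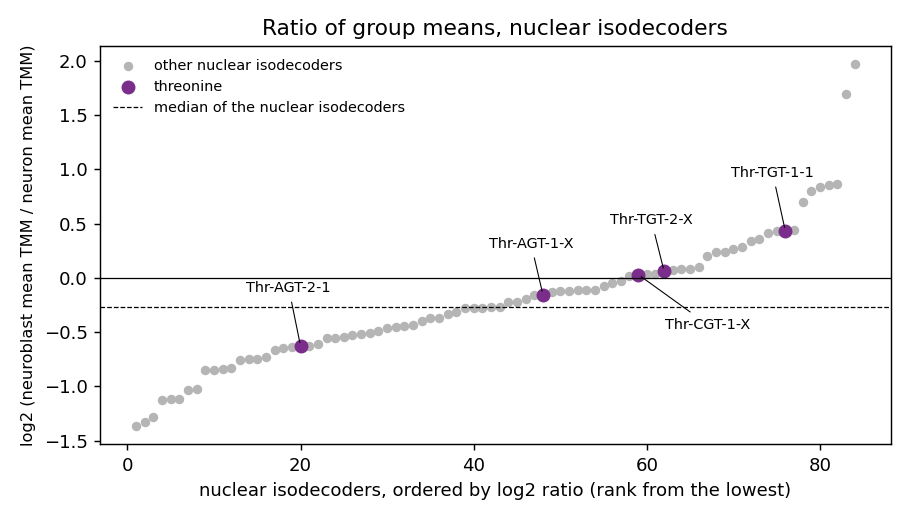
Log2 ratio of neuroblast over neuron mean TMM for the 84 nuclear isodecoders in rank order (grey), with the 5 threonine isodecoders in purple, the solid line at 0 and the dashed line at the nuclear median of −0.27. The 3 abundant threonine isodecoders lie between −0.15 and 0.06, and Thr-AGT-2-1 and Thr-TGT-1-1 lie at −0.63 and 0.43.

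The isodecoders of other amino acids with the closest log2 ratio were looked up for the most abundant isodecoder of each threonine anticodon. With only 2 group means per tRNA, likeness here is the difference between log2 ratios. For Thr-AGT-1-X they were His-GTG-1-X, Ala-CGC-1-X and Asp-GTC-2-1, at −0.16, −0.13 and −0.12. For Thr-CGT-1-X they were Gln-CTG-1-1, Ile-TAT-1-X and the initiator tRNA iMet-CAT-1-X, between 0.02 and 0.04. For Thr-TGT-2-X they were Asn-GTT-1-X, Ile-TAT-1-X and Cys-GCA-3-1, between 0.04 and 0.08.

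Summed over the 5 isodecoders, the threonine pool was 627090 TMM in neuroblasts and 641501 in neurons, a log2 ratio of −0.03. The summed nuclear TMM was 13449691 in neuroblasts and 16544453 in neurons, so threonine tRNAs took 4.66% of it in neuroblasts and 3.88% in neurons. A nearly level TMM thus goes with a larger share of the nuclear pool in neuroblasts, as for 11 of the 20 amino acids. Summed pools of the 20 amino acids ranged from −1.12 for tyrosine to 0.33 for serine, and threonine was sixth from the top. Methionine with its initiator tRNA (0.0037), cysteine (−0.09) and valine (−0.13) had the closest log2 ratios. With the nuclear median set to 0, the threonine pool stood at 0.23.

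Within the pool, the anticodons shifted by a few percentage points. The AGT group summed to 222995 TMM in neuroblasts and 250208 in neurons, the CGT group to 247298 and 241978, and the TGT group to 156796 and 149315. From neurons to neuroblasts, AGT thus differed by −27212 TMM, while CGT and TGT together differed by 12801. These levels are on the deposited scale, on which the log2 ratio of the AGT group was −0.17, and it turns to 0.10 with the nuclear isodecoders centred. As shares of the pool, AGT made up 35.6% in neuroblasts and 39.0% in neurons, CGT 39.4% and 37.7%, and TGT 25.0% and 23.3%. CGT was the largest group in neuroblasts and AGT the largest in neurons, and TGT was the smallest in both. In neurons the first place was narrow, as the AGT group was 1.03 times the CGT group, or 1.007 times per nucleotide. Compared with the gene shares, CGT held more of the TMM than of the genes in both groups, and AGT and TGT held less.

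The study measures an anticodon group by the average of its isodecoders, and on that scale the order is another. The AGT group then averages 111498 in neuroblasts and 125104 in neurons, because the scarce Thr-AGT-2-1 counts as much as Thr-AGT-1-X. TGT averages 78398 and 74658, while CGT, with its only isodecoder, keeps its value. Shares of the averaged pool were 25.5% and 28.3% for AGT, 56.6% and 54.8% for CGT, and 17.9% and 16.9% for TGT. CGT is then first in both groups by a wide margin. The direction of each difference in share was the same for sums and averages, with AGT lower in neuroblasts and CGT and TGT higher.

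**Figure D4:**
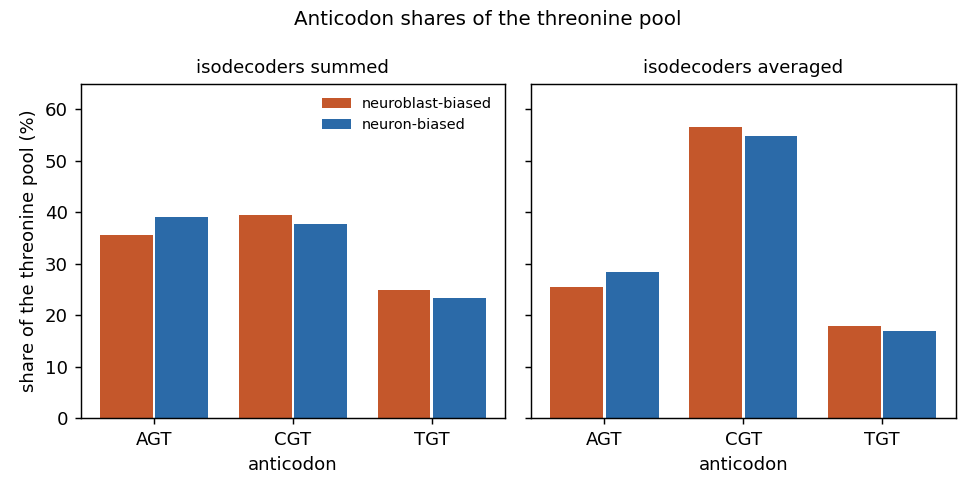
Share of each anticodon in the threonine pool, in percent, for neuroblast-biased and neuron-biased brains, with the isodecoders of an anticodon summed (left) or averaged (right). AGT takes 35.6% and 39.0% when summed and 25.5% and 28.3% when averaged, lower in neuroblasts both times.

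The balance of the inosine-type reader to the other threonine tRNAs was taken as the summed AGT over the summed CGT and TGT. It was 0.552 in neuroblasts and 0.639 in neurons, or −0.86 and −0.65 on the log2 scale, a difference of −0.21. Against CGT alone the ratio was 0.902 in neuroblasts and 1.03 in neurons. Against TGT alone it was 1.42 and 1.68. The ratio of CGT to TGT, neither of which is an inosine-type reader, was 1.58 in neuroblasts against 1.62 in neurons, which differ by −0.04 on the log2 scale. Nearly all of the shift in the pool was thus between AGT and the other anticodons. A shared scaling of each group cancels in these ratios, so the balance is the same with or without it.

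The same balance was calculated for the other anticodon boxes with an inosine-type reader, each made up of tRNAs of 1 amino acid whose anticodons differ in the first letter only. There were 8 such boxes with threonine. The difference of the log2 balance between neuroblasts and neurons was −0.30 for arginine, −0.25 for serine, −0.21 for threonine and −0.02 for alanine. It was 0.10 for leucine, 0.23 for proline, 0.32 for isoleucine and 0.73 for valine. The inosine-type reader was therefore lower relative to its partners in neuroblasts in 4 boxes and higher in 4. Of the other 7 boxes, 5 had a difference larger in size than threonine, and their median size was 0.25. With isodecoders averaged in place of summed, serine stood at −0.07, alanine at −0.13 and threonine at −0.21, second from the lowest, and each box kept its direction. The threonine box was 1 of 4 in which the inosine-type reader made up less than its partners in both groups, with leucine, proline and valine.

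**Figure D5:**
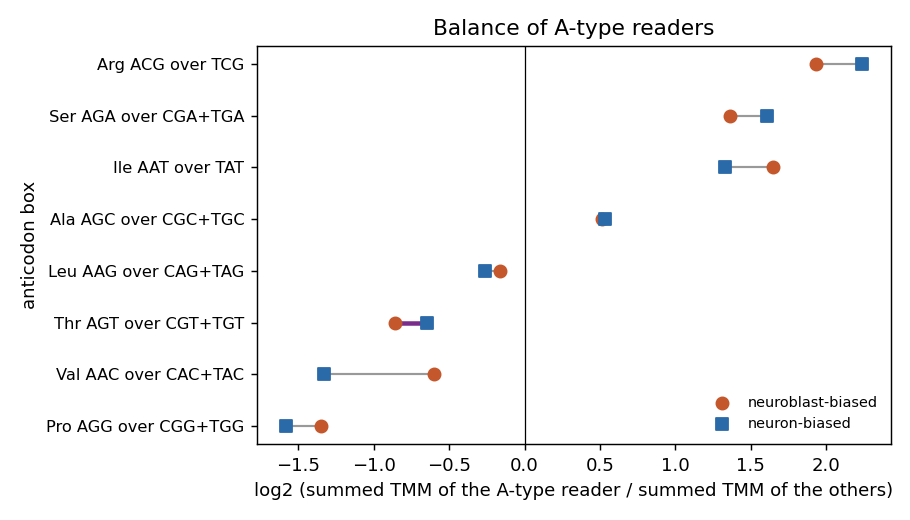
Log2 ratio of the summed TMM of the inosine-type (A-type) reader to that of the other anticodons of its box, for 8 boxes, with circles for neuroblast-biased and squares for neuron-biased brains. Threonine (purple line) moves from −0.65 in neurons to −0.86 in neuroblasts, while valine moves from −1.33 to −0.60.

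The supply of the 4 threonine codons was calculated with the formula of the tRNA adaptation index (tAI), in which each tRNA counts in full for its own codon and is reduced by a penalty for a wobble pair. The averaged TMM of each anticodon was used. Each weight was then divided by the largest among the 4 codons. ACG, read by CGT and by wobble of TGT, had the largest weight in both groups and is therefore 1. The weight of ACU was 0.409 in neuroblasts and 0.471 in neurons. ACC, read by the same AGT tRNA through an I:C pair with a penalty of 0.28, had 0.295 and 0.339. ACA, read mainly by TGT, had 0.288 in neuroblasts and 0.281 in neurons. Both codons of the inosine-type reader thus had lower relative weights in neuroblasts, by −0.06 for ACU and −0.04 for ACC, while ACA differed by 0.007. The ACU and ACC differences are not separate results, since both weights come from the same AGT level. All of these differences are smaller than the cutoff in size that the paper sets for displaying tAI differences between the groups. The comparison is with that cutoff only, as the paper's own tAI values for threonine codons were not compared. Without wobble penalties the direction for ACA turns, to a difference of −0.05. With the isodecoders summed, ACU had a weight of 0.750 in neuroblasts and 0.864 in neurons, and ACG was still the largest. Codon use in mRNAs was not analysed here.

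The mitochondrial genome has its own threonine tRNA with the anticodon TGT, which is not part of the cytosolic pool. Neuroblasts had a mean of 4438 TMM of it and neurons 1586, which is a log2 ratio of 1.48. Its level equalled 0.708% of the nuclear threonine pool in neuroblasts and 0.247% in neurons. Both means were below that of every nuclear threonine isodecoder in the same group, the lowest being 4542 in neuroblasts and 3455 in neurons. On summed TMM, the log2 ratio was −0.27 over all tRNAs and −0.30 over nuclear tRNAs. The mitochondrial tRNAs as a sum thus had a higher ratio than the nuclear ones. The 22 mitochondrial tRNAs were not compared with each other, so whether the ratio of 1.48 is particular to threonine was not tested.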

How the data were processed

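Larval brain RNA from 3 neuroblast-biased and 3 neuron-biased samples was sequenced by hydro-tRNAseq. According to the methods of the paper, the authors trimmed reads with cutadapt, collapsed identical mature tRNA sequences from gtRNAdb and added CCA. They aligned with subread-align and kept reads above a mapping quality minimum. They counted with featureCounts, splitting multi-mapped reads, and applied TMM normalization and batch correction in NOISeqBio. The deposited table holds, per tRNA, the mean of each group, a normalized signal in TMM. It also holds the authors' fold changes, scores and q-values, which were not used.

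Log2 ratios (neuroblast over neuron, no pseudocount), shares, balances and codon weights were calculated from the means with Python 3.11.15, numpy 2.4.6 and pandas 2.3.3 and plotted with matplotlib 3.10.9. In the codon weights, a U:G pair carried a penalty of 0.68, an I:C pair one of 0.28, and I:A pairs counted for almost nothing. The code for shares, balances and codon weights was checked on random levels against the same formulas written out. That checks the arithmetic only and does not test the measurements. Genes were counted by name in RefSeq, and all 84 nuclear isodecoders matched. Amino acid pools exclude selenocysteine. All threonine isodecoders are named, besides the closest isodecoders and families and the boxes with an A-type reader. Members, lists and comparisons were chosen with earlier results of these data known. The per-nucleotide values were added after seeing the data. Alternatives were other scalings, a pseudocount of 1000, a minimum of 10000 TMM, sums against averages and other wobble rules.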

Additional observations from a re-analysis of the deposited data

How the results depend on the processing

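No paired analysis was possible because the table holds 1 mean per group, and for the same reason no replicate could be left out and no depth limit given. Without a spread, a value is counted here as moved when a log2 ratio changes sign or crosses 0.5 in size, a share moves by at least 1 percentage point or a codon weight by at least 0.05. With the nuclear median set to 0, the same summed nuclear TMM or the same summed TMM of all tRNAs, the log2 ratio of Thr-AGT-1-X turned from −0.15 to 0.11, 0.14 and 0.11, that of the AGT group from −0.17 to 0.10 and 0.13 under the first and second of these, and that of the threonine pool from −0.03 to 0.23, 0.27 and 0.23. Under the same 3 scalings, Thr-AGT-2-1 came below 0.5 in size, at −0.36, −0.33 and −0.36, and Thr-TGT-1-1 passed it, at 0.70, 0.73 and 0.70. These shifts follow from the construction, since each scaling adds 1 amount to every ratio. The pseudocount of 1000 moved none of the 5 ratios across 0 or 0.5. The number of threonine isodecoders past the size was 2 at 0.3 and 0 at 1. The share of all nuclear isodecoders past these other sizes was not calculated, so nothing particular to threonine can be read from these counts.

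Averaging the isodecoders changed the shares in neuroblasts and neurons to 25.5% and 28.3% for AGT, 56.6% and 54.8% for CGT, and 17.9% and 16.9% for TGT. Neither the minimum of 10000 TMM nor division by length moved a share by 1 percentage point. The difference in the balance of AGT lay between −0.24 and −0.20 under all alternatives run. Division by length could not move it, as CGT and TGT isodecoders have the same mature length. The comparisons with CGT alone and with TGT alone are parts of the same balance, so the alternatives are not independent checks. Summing the isodecoders gave codon weights in neuroblasts and neurons of 0.750 and 0.864 for ACU, 0.540 and 0.622 for ACC, and 0.527 and 0.515 for ACA. Without wobble penalties they were 0.342 and 0.395 for ACU, 0.583 and 0.631 for ACA, and 0.395 for ACC in neurons, so that ACA was lower in neuroblasts instead of higher. With Watson-Crick pairs only, the weight of ACC was 0 in neuroblasts and 0 in neurons, as the table holds no threonine tRNA with the anticodon GGT. ACG had the largest weight under each of these rules.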
